A study of Mus musculus with 6 samples.

Results

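Gamma-delta T cells that carry the CD8aa homodimer (TCRgd CD8aa) were compared with alpha-beta T cells that carry the CD8ab heterodimer (TCRab CD8ab), both taken from the lymphocytes that sit in the epithelium of the small intestine. Samples were chosen by their labels, which gave 4 of the 6 arrays of the study, 2 for each of these groups. All came from untreated C57BL/6 mice less than 8 weeks old, whose cells were sorted and used fresh, and each RNA sample stood for a pool of 20 mice. Each replicate number marks an experiment with a new pool, from which both of these groups and the third subset, TCRab CD8aa, were sorted, so the arrays are paired within experiments 1 and 2. The gamma-delta samples are named TCRgd in their source field and TCRgb in their titles, and the source field was followed. The values are averages over pools, so no p-value here measures the spread between mice. In a fit with a term for the experiment, p-values measure how far the differences between groups varied from experiment 1 to experiment 2. In such bulk samples, fewer cells that express a gene and less RNA of it per cell cannot be told apart.

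T cells recognise antigen through a receptor built of alpha and beta or of gamma and delta chains, which signals through the CD3 chains. CD8 assists recognition as an alpha-beta heterodimer in conventional cytotoxic T cells of lymph nodes and spleen, and such cells seed the gut lining after activation. Gamma-delta cells and the alpha-beta cells with CD8aa are long-lived residents of the lining, often called natural or unconventional intraepithelial lymphocytes. They are known for receptors shared with natural killer (NK) cells and for close contact with epithelial cells.

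TCRgd CD8aa lymphocytes held far less RNA than TCRab CD8ab lymphocytes for Cd5, Cd6, Cd2, Klf2 and Cd28, surface receptors and a recirculation factor of conventional T cells, with mean log2 differences from -6.88 for Cd5 to -4.76 for Cd28. They held more for Fcer1g and Tyrobp, adaptor chains of NK and Fc receptors (5.13 and 4.33), for the NK-type receptor Klrb1a (3.61) and for Itih5, a matrix-binding protein (4.49). The junction gene Pkp2 was also higher (3.54). The values for Cd5, Cd6, Klf2 and Fcer1g are lower bounds on the size of the difference where an array lay at the floor. The receptor chain gene Cd3g, granzyme B and the gut integrin gene Itgae were bright in both groups and were not called.

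Messenger RNA was read as signal per probe set, an arbitrary linear unit that scales with brightness. Values below the 20th percentile of all values (signal 15.3) were set to that floor, and log2 was taken, so that the floor is log2 3.94. A level here is log2 signal, and a difference is TCRgd CD8aa minus TCRab CD8ab in log2 units, taken within an experiment or averaged over both. Of 12488 probe sets, 8006 lay above the 40th percentile (signal 56.4) in at least 2 of the 4 arrays and were tested. Without a term for the experiment, limma called 0 probe sets higher and 0 lower (0% of those tested in each direction) at a Benjamini-Hochberg adjusted p under 0.05. In that fit, 162 probe sets had an unadjusted p under 0.05 and the smallest adjusted p was 0.263. With the experiment as a block, which compares arrays of the same pool, limma called 28 probe sets higher (0.35%) and 17 lower (0.212%), and 668 had an unadjusted p under 0.05. The residual standard deviation was 0.70 without the block and 0.38 with it. Adjusted p-values below are from limma with the block, and "called" refers to that fit alone. None of these calls holds without the block.

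The size of the count depends on single arrays. With the block, leaving out the TCRgd CD8aa array of experiment 2 gave 26 higher and 35 lower calls, and leaving out that of experiment 1 gave 121 and 59. Leaving out the TCRab CD8ab array of experiment 1 gave 179 and 168, and that of experiment 2 gave 40 and 24. Without the intensity trend in limma's variance estimate, 2 higher and 2 lower calls were left, which were Itih5, an unnamed probe set (92328_at), Cd5 and Cd6, and with no filter on dim probe sets there were 0 in each direction. No call held with no filter, and 41 of the 45 were lost without the trend. Leaving these settings aside, 33 of the 45 calls held in every setting with the block that still tested them. The other 12 lost the call in at least 1, as given for the genes described. Klf2, Fcer1g, Sh2d1a and Gramd3, among the 33, were tested in 14 of 16 settings with the block, because the filter on dim probe sets dropped them when some arrays were left out. These genes and Zbtb16 passed that filter only through the group where they are high. Their direction and lack of overlap thus carry no weight of their own.

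The experiments differed in RNA quality and in cells other than lymphocytes. RNA integrity was gauged by Actb, whose probe set at the 3' end was brighter than the one at the 5' end by a factor of 1.54 and 1.41 in the TCRgd CD8aa and TCRab CD8ab arrays of experiment 1, and 40.4 and 52.2 in those of experiment 2. The summed signal of 18 enterocyte markers was 2974 and 29792 in the TCRgd CD8aa arrays of experiments 1 and 2, and 3924 and 3037 in the TCRab CD8ab arrays. Differences of experiment 1 and experiment 2 correlated weakly across the probe sets (Pearson's r = 0.125, a description over 8006 probe sets that share arrays). They had the same sign for 4132 probe sets, 51.6%. For this reason each result is given within both experiments. A difference of at least 1 in experiment 1 was reached by 957 probe sets, and in experiment 2 by 2180. At least 1 in the same direction in both was reached by 145 probe sets higher (1.81%), which stand for 123 named genes among those with 1 symbol, and by 153 lower (1.91%), for 131 genes. All 45 called probe sets are among them. Both TCRgd CD8aa arrays lay above both TCRab CD8ab arrays for 734 probe sets (9.17%) and below them for 821 (10.3%), and this held for 27 of the 28 higher and 16 of the 17 lower calls.

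**Figure D1:**
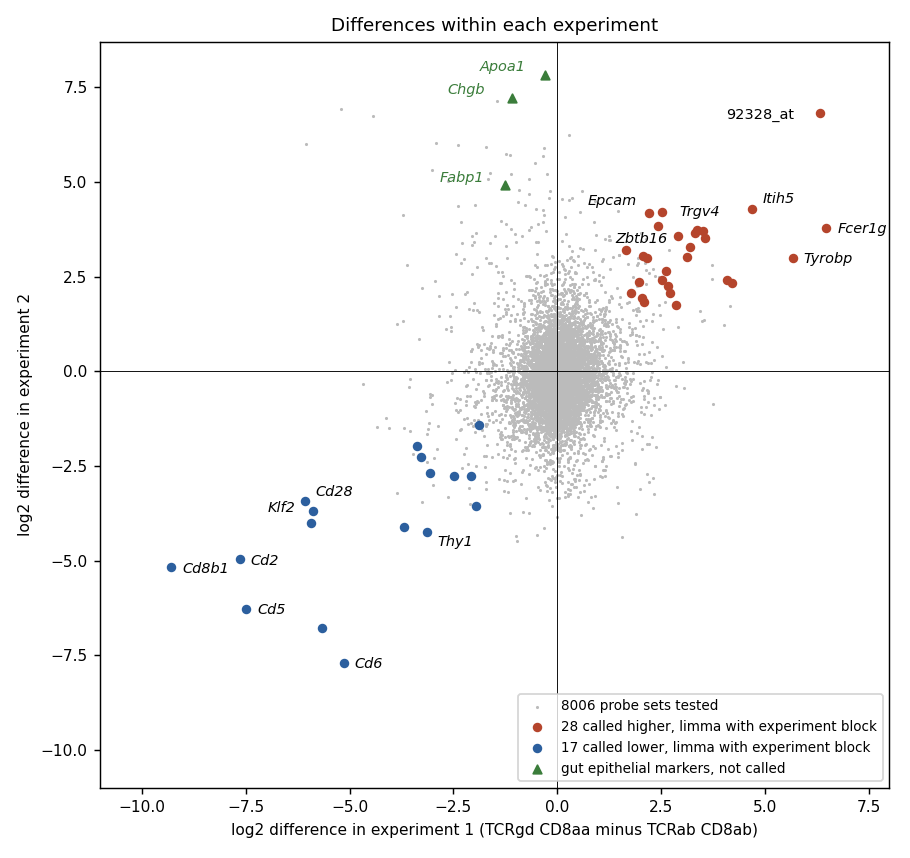
Each point is 1 of 8006 probe sets, by its log2 difference (TCRgd CD8aa minus TCRab CD8ab) in experiment 1 on the x axis and in experiment 2 on the y axis. The 28 probe sets called higher lie in the upper right and the 17 called lower in the lower left, while the gut epithelial genes Apoa1, Chgb and Fabp1 (triangles, not called) are high only on the y axis.

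Surface molecules of conventional T cells made up the largest differences toward TCRab CD8ab. Of 18 measured genes in a list of such molecules, 6 were called lower in TCRgd CD8aa (Cd5, Cd6, Cd2, Cd28, Thy1 and Ctla4) and none higher. At least 1 lower in both experiments was reached by 8 of the 18, which adds Pdcd1 and Cd44. Over all probe sets tested, 0.212% were called lower and 1.91% were at least 1 lower in both. The list was chosen with earlier results of these data known. The median difference of the list was -1.45, against -0.06 over all probe sets tested.

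Cd5, a scavenger-type receptor that dampens signals of the T cell receptor, read the floor of 3.94 in experiment 1 and 6.65 in experiment 2 in TCRgd CD8aa, against 11.42 and 12.92 in TCRab CD8ab (limma adjusted p = 0.00049, n = 2 pools, the same for both groups). Because 1 array lay at the floor, its mean difference of -6.88 ± 0.47 SE is a lower bound on the size. Cd6, its relative and neighbour on chromosome 19 with 1 gene between them, was measured by a pair of probe sets. The first gave 7.99 and 3.94 against 13.13 and 11.64 (adjusted p = 0.0026 by limma) and the second 6.35 and 4.60 against 12.01 and 11.39 (limma adjusted p = 0.00049). For both genes, each TCRgd CD8aa array lay far below each TCRab CD8ab array. The higher of the 2 TCRgd CD8aa values belonged to experiment 2 for Cd5 and to experiment 1 for Cd6.

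Cd2, an adhesion receptor that binds CD48, was 4.05 and 6.66 in TCRgd CD8aa and 11.70 and 11.63 in TCRab CD8ab (limma adjusted p = 0.0026). On the linear scale its TCRgd CD8aa signal was 0.499% of that of the paired TCRab CD8ab array in experiment 1 and 3.19% in experiment 2. The ligand gene Cd48 showed no such gap, at 12.20 and 11.96 against 12.17 and 12.26 (limma adjusted p = 0.94). Cd28, the main costimulatory receptor of naive T cells, read 5.32 and 6.43 against 11.40 and 9.87 (limma adjusted p = 0.018). Thy1, a surface glycoprotein of T cells and neurons, read 9.33 and 8.10 against 12.47 and 12.34 (limma adjusted p = 0.0026). Thy1 thus kept a level well above the floor, with signal 11.3% and 5.29% of that of the paired array. Ctla4, the inhibitory counterpart of Cd28, read 11.55 and 12.13 against 13.45 and 13.56, the narrowest gap among the called members (difference -1.66 ± 0.28 SE; limma adjusted p = 0.044). Its call was lost without the TCRgd CD8aa array of experiment 1 (limma adjusted p = 0.087).

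Pdcd1, which encodes the inhibitory receptor PD-1, read 5.35 and 4.24 against 8.61 and 7.69 and did not pass (limma adjusted p = 0.084). Cd44, an adhesion receptor of activated T cells, read 6.14 and 5.47 against 8.27 and 6.85 (limma adjusted p = 0.40). The TCRgd CD8aa arrays were below the TCRab CD8ab arrays for both genes, which for Pdcd1 follows from the filter on dim probe sets. Other members showed small or mixed differences. Cd27, a costimulatory TNF receptor, differed by -0.48 and -0.46 in experiments 1 and 2, and Cd96, an adhesion receptor, by 0.48 and 0.14. Il7r, the receptor chain for the survival factor IL-7, read 6.81 and 9.99 against 11.48 and 10.32. Its difference was thus -4.68 in experiment 1 and -0.33 in experiment 2 (limma adjusted p = 0.38).

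**Figure D2:**
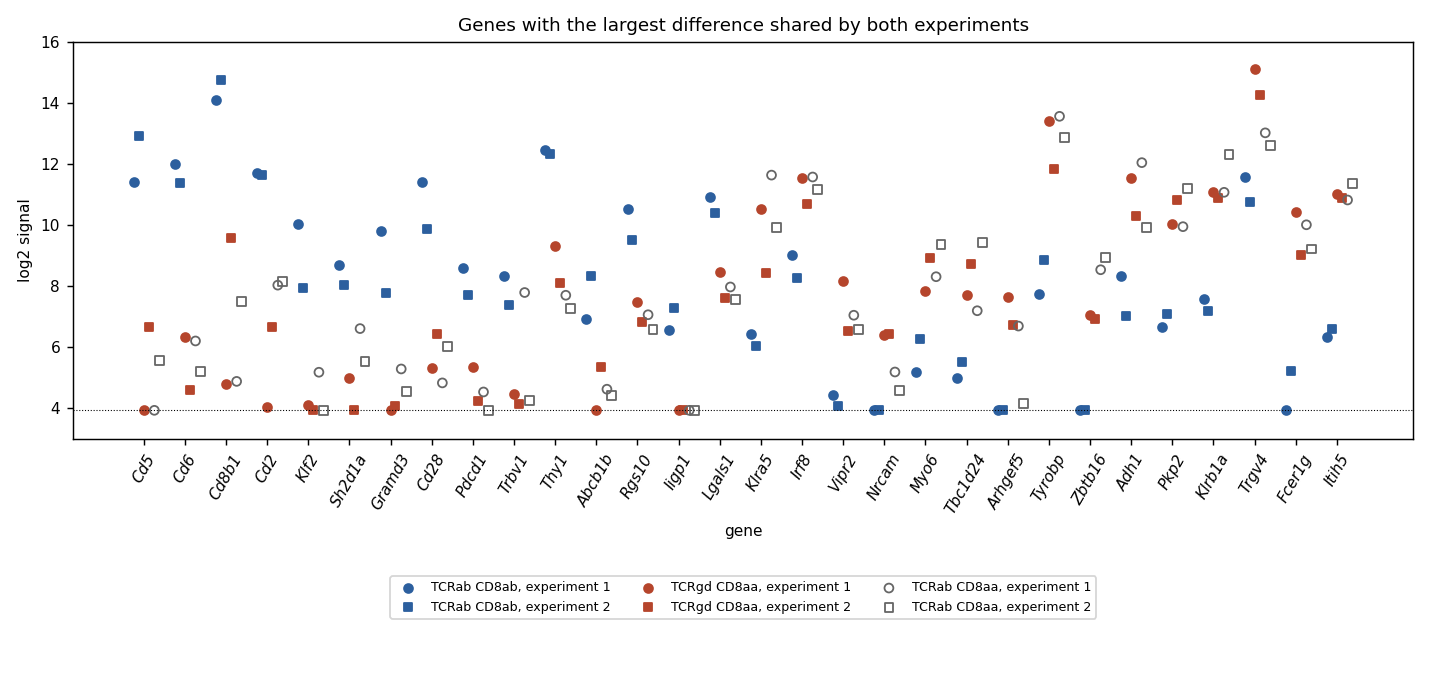
Log2 signal on the y axis for the 30 genes on the x axis with the largest difference that both experiments shared, 15 lower (left) and 15 higher (right) in TCRgd CD8aa. Blue marks are TCRab CD8ab, red marks TCRgd CD8aa and open grey marks TCRab CD8aa, circles are experiment 1 and squares experiment 2, and the dotted line is the floor. Only genes whose red marks lie on 1 side of the blue marks were eligible, so that pattern is the rule of choice and not a result.

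Several transcription factors from a list for naive and memory T cells were lower with them. Of 12 measured, 3 were called lower (Klf2, Irf4 and Satb1), none higher, and the median difference was -1.21. Of all probe sets tested, 0.212% were called lower. Klf2, which drives genes for exit from tissue and recirculation, read 4.10 and 3.94 in TCRgd CD8aa against 10.02 and 7.94 in TCRab CD8ab (limma adjusted p = 0.018). Its TCRgd CD8aa values were at or close to the floor, so the difference is a lower bound. Klf2 passed the filter on dim probe sets only through the TCRab CD8ab arrays, which fixed its direction and lack of overlap. Irf4, induced by receptor signals, read 7.51 and 9.98 against 10.78 and 12.26 (limma adjusted p = 0.013). Satb1, a chromatin organiser of developing T cells, read 7.21 and 6.50 against 10.57 and 8.48 (limma adjusted p = 0.042). Irf4 was brighter in experiment 2 in both groups, and no TCRgd CD8aa array of these 3 genes reached a TCRab CD8ab array of the same experiment. Satb1 lost its call without the TCRgd CD8aa array of experiment 1 (limma adjusted p = 0.062).

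Klf3 and Myb also lay lower in both experiments without passing. Klf3, a repressor related to Klf2, read 6.63 and 6.39 against 9.78 and 8.06 (limma adjusted p = 0.12), and Myb, a factor of progenitors and memory cells, 5.80 and 6.04 against 9.86 and 7.53 (limma adjusted p = 0.19). Not every factor of this list shifted: Ets1 differed by -0.33 and 0.25, Id3 by -0.71 and 0.21, and Lef1 by -1.80 and 0.20.

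Among adaptors and other signalling genes, Sh2d1a, the adaptor SAP of the SLAM family of receptors, read 4.99 and 3.94 in TCRgd CD8aa against 8.68 and 8.04 in TCRab CD8ab (limma adjusted p = 0.018). Rgs10, which shortens signals of G protein coupled receptors, read 7.47 and 6.84 against 10.53 and 9.52 by the called probe set (limma adjusted p = 0.014), while a brighter probe set of the gene gave a difference of -1.95 that did not pass (limma adjusted p = 0.22). Lgals1, a secreted galectin, read 8.45 and 7.62 against 10.92 and 10.39 (limma adjusted p = 0.013). All TCRgd CD8aa values of these 3 genes lay below all TCRab CD8ab values. Gramd3, a lipid-binding membrane protein gene, read 3.94 and 4.09 against 9.82 and 7.77 (limma adjusted p = 0.024). Its second probe set had the same direction and did not pass (difference -2.59, limma adjusted p = 0.34). Dusp2, a phosphatase that switches off MAP kinases, read 8.85 and 8.28 against 10.68 and 9.82 (limma adjusted p = 0.085). Abcb1b, a drug efflux pump, and Iigp1, an interferon-induced GTPase, completed the 15 genes with the largest shared difference toward TCRab CD8ab. Abcb1b read 3.94 and 5.34 against 6.92 and 8.34, and Iigp1 was at the floor in both TCRgd CD8aa arrays against 6.57 and 7.27 (limma adjusted p = 0.20 and 0.27). Sh2d1a, Gramd3, Abcb1b and Iigp1 passed the filter on dim probe sets only through the TCRab CD8ab arrays, which fixed their direction and lack of overlap.

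The genes that define the sort were read as a check of the labels. Cd8b1, the beta chain of CD8, read 4.81 and 9.58 in TCRgd CD8aa and 14.11 and 14.75 in TCRab CD8ab. Its signal in TCRgd CD8aa was 0.159% of the paired array in experiment 1 and 2.77% in experiment 2, so both arrays follow their label, experiment 1 more closely. Cd8a, shared by both forms of CD8, read 14.02 and 12.88 against 13.99 and 12.69. Of the chains of the receptor complex, Cd3d differed by 0.08 and 0.01, Cd3g by 0.65 and 0.21, Cd3e by 0.72 and 0.04, and Cd247 by -0.24 and -1.41, and none was called. Because CD8b and the receptor chains were the basis of the sort, their differences are not findings.

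Antigen receptor genes were covered thinly, with 2 gamma segments and 3 alpha or beta segments measured. Trgv4, a gamma variable segment, read 15.10 and 14.26 in TCRgd CD8aa, 11.56 and 10.74 in TCRab CD8ab, and 13.02 and 12.61 in TCRab CD8aa. The order of the 3 groups was the same in both experiments, and the difference of 1.87 ± 0.29 SE between the CD8aa groups did not pass (limma adjusted p = 0.18). Trgv1 was 13.89 and 13.59 against 12.97 and 12.78. RNA annotated as gamma segments was thus bright in cells sorted for the alpha-beta receptor as well. In the other direction, the brighter Trbv1 probe set read 14.59 and 13.30 in TCRgd CD8aa against 14.93 and 14.43 in TCRab CD8ab (limma adjusted p = 0.61), and its dim probe set 4.47 and 4.15 against 8.33 and 7.37 (limma adjusted p = 0.16). For Trbv13-2 and Trav9d-3, 1 probe set each was called lower, with differences of -2.76 and -2.42 (limma adjusted p = 0.043 and 0.041). Both calls were lost without the TCRab CD8ab array of experiment 2 (differences -1.92 and -2.51). The Trbv13-2 call was also lost with a floor at the 30th percentile (limma adjusted p = 0.0503). The other Trbv13-2 probe set differed by -1.27 and -1.51 in experiments 1 and 2 and was not called (limma adjusted p = 0.33). Receptor segments belong to families of similar genes, and these probe sets may read more than 1 member.

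Adaptor chains that pair with NK and Fc receptors were higher in TCRgd CD8aa. Of 8 measured chains that carry the ITAM signalling motif, 2 were called higher, Fcer1g and Tyrobp, and the 4 CD3 chains and both B cell chains were not called. Of all probe sets tested, 0.35% were called higher. Fcer1g, the gamma chain of Fc receptors, which can also join the T cell receptor complex, read 10.41 and 9.02 in TCRgd CD8aa against 3.94, the floor, and 5.23 in TCRab CD8ab, so its difference is a lower bound (limma adjusted p = 0.0085). Tyrobp, the adaptor DAP12 of activating NK receptors, read 13.42 and 11.83 against 7.75 and 8.84 (limma adjusted p = 0.010). In TCRab CD8aa the levels were 10.01 and 9.21 for Fcer1g and 13.56 and 12.88 for Tyrobp. Groups did not overlap for Tyrobp. For Fcer1g the lack of overlap was fixed, because it passed the filter on dim probe sets only through the TCRgd CD8aa arrays. The gaps of Fcer1g and Tyrobp were wider in experiment 1, at 6.48 and 5.67, than in experiment 2, at 3.79 and 2.99. Cd247, the zeta chain that Fcer1g can replace in the receptor complex, read 10.15 and 7.70 against 10.39 and 9.11 (limma adjusted p = 0.64).

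Receptors of the NK type are encoded together on chromosome 6. Between Klrb1a and Klra2, RefSeq (GRCm38.p6) lists 92 genes, of which 11 were measured here. Of these, 5 were at least 1 higher in both experiments and 0 lower, 8 were higher in both by any amount, and the median difference was 1.07. Over all probe sets tested, 1.81% were at least 1 higher in both, 22.7% higher by any amount, and the median was -0.06. The 3 called genes were Klrb1a, Klra5 and Klra3, where 0.35% of all probe sets tested were called higher.

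Klrb1a, an activating lectin-type receptor of the NK1.1 family, read 11.07 and 10.89 in TCRgd CD8aa against 7.57 and 7.17 in TCRab CD8ab (limma adjusted p = 0.0081). Klra5, an inhibitory receptor of the Ly49 family for MHC class I, read 10.54 and 8.43 against 6.44 and 6.03 (limma adjusted p = 0.015), and Klra3, of the same family, 8.80 and 8.81 against 6.07 and 6.75 (limma adjusted p = 0.034). Klra3 lost its call in a fit of the 4 arrays alone (limma adjusted p = 0.064). It also lost it without the TCRgd CD8aa array of experiment 1 (difference 2.07) and without the TCRab CD8aa array of experiment 2 (2.39), which enters the fit but not the difference. Klra6 and Klra7 lay higher in both experiments without passing, with mean differences of 1.81 ± 0.44 and 1.07 ± 0.47 SE (limma adjusted p = 0.20 and 0.60). In TCRab CD8aa, Klra6 read 10.02 and 9.45 and Klra7 9.88 and 9.57, against 8.01 and 7.84 and 7.30 and 7.53 in TCRgd CD8aa. Neither difference between the CD8aa groups passed. Ly49 genes are close copies, and these probe sets may read more than 1 member.

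Klrd1, which encodes CD94, the partner of some NKG2 receptors, read 13.47 and 14.19 against 11.95 and 12.24, just outside the threshold (limma adjusted p = 0.060). Klrc1, which encodes such a partner, showed no shared direction and differed by -0.60 and 0.49 in experiments 1 and 2. Klrk1 (NKG2D), which is not a partner of CD94, differed by -1.31 and 1.90. Cd244a, a SLAM receptor of NK cells that also binds CD48, read 12.76 and 13.51 against 11.60 and 12.49 (limma adjusted p = 0.21). Cd160, another receptor of gut lymphocytes, lay the other way, at 12.48 and 10.83 against 13.21 and 11.74 (limma adjusted p = 0.45). Of the markers of NK cells proper, only Eomes was bright enough to be tested, and it read 3.97 and 6.02 in TCRgd CD8aa against 7.14 and 7.06.

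The promoter windows of genes on both sides of the comparison are shown to let their letters be read side by side, 4 from genes called higher and Cd5 from a gene called lower; they come from RefSeq (GRCm38.p6), run 5' to 3' from 250 bases before to 50 bases after the start, and all lie on the minus strand. Capitals mark the letters TGTGGT, a core that RUNX factors bind, and GAGGAA, a core that ETS factors bind, on either strand, so that GAGGAA on the other strand reads as its reverse complement. The windows are chr1:171234300-171234599 for Fcer1g, chr6:128622885-128623184 for Klrb1a, chr6:130337577-130337876 for Klra3, chr6:129913175-129913474 for Klra5 and chr19:10738925-10739224 for Cd5.
Fcer1g: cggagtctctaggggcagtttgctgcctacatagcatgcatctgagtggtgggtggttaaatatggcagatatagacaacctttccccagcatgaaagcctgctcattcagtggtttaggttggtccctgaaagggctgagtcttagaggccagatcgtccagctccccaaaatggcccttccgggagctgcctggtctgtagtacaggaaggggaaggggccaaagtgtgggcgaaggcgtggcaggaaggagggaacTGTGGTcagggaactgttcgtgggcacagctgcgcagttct
Klrb1a: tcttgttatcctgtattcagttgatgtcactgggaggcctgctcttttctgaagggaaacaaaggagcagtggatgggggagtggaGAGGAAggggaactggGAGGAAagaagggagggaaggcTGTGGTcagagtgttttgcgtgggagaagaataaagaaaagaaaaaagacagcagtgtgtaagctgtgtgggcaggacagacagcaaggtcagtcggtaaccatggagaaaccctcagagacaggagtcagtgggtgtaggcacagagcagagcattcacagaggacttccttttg
Klra3: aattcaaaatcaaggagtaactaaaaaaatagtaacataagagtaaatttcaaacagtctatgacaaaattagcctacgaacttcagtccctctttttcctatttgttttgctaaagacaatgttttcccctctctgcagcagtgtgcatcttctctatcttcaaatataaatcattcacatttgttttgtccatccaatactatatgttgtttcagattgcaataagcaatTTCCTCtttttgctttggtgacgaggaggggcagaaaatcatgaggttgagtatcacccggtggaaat
Klra5: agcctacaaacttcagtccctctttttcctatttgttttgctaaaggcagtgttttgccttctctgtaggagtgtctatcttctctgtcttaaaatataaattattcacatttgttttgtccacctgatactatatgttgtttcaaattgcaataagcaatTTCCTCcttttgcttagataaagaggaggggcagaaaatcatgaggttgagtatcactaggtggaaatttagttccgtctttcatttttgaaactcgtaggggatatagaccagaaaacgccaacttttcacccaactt
Cd5: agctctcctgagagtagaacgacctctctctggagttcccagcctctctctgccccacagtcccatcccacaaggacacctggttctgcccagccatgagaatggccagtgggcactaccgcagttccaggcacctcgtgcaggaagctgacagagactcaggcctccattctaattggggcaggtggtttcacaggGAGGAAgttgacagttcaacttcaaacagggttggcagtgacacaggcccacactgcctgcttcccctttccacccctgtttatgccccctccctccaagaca
TGTGGT lies at bases 260 to 265 of the Fcer1g window and 125 to 130 of the Klrb1a window. GAGGAA lies at bases 87 to 92 and 103 to 108 for Klrb1a and 198 to 203 for Cd5, and on the other strand at 233 to 238 for Klra3 and 162 to 167 for Klra5. Klra3 and Klra5 could be aligned over 229 bases, of which 206 (90.0%) were identical. The called genes with 1 symbol and a window in the table were 14 higher genes with 20 windows and 6 lower genes with 10. TGTGGT was present in 6 of the 20 windows (4 genes) and 0 of the 10, and in 16.8% of all 32851 windows. GAGGAA was present in 6 of the 20 windows of higher genes (6 genes) and 5 of the 10 of lower genes (3 genes), and in 28.3% of all windows. A match describes the letters and is not evidence of binding.

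The probe set with the smallest p of the comparison has no gene name here. It is 92328_at, which read 14.03 and 13.20 in TCRgd CD8aa, 7.71 and 6.39 in TCRab CD8ab, and 8.16 and 7.15 in TCRab CD8aa. Its difference from TCRab CD8ab was 6.57 ± 0.32 SE (limma adjusted p = 5.9e-05). It was also the only probe set of 8006 (0.0125%) for which the direct contrast of TCRgd CD8aa with TCRab CD8aa passed, with a difference of 5.95 (limma adjusted p = 0.00014), while without the block 0 passed. Both TCRgd CD8aa arrays thus lay far above the other 4 arrays.

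The named gene with the largest shared difference toward TCRgd CD8aa was Itih5, a secreted protein that binds the matrix sugar hyaluronan through its partners. It read 11.02 and 10.88 in TCRgd CD8aa against 6.34 and 6.58 in TCRab CD8ab (difference 4.49 ± 0.32 SE; limma adjusted p = 0.00049), and 10.82 and 11.35 in TCRab CD8aa. Each TCRgd CD8aa array lay above each TCRab CD8ab array by more than 4 log2 units. Napsa, an aspartic protease, read 11.07 and 10.18 against 6.87 and 7.86 (limma adjusted p = 0.018). Fgl2, a fibrinogen-like protein of T cells and macrophages, read 12.56 and 12.74 against 10.58 and 10.38 (limma adjusted p = 0.014). Mcam, an adhesion molecule, read 10.99 and 9.66 against 8.14 and 7.92 (limma adjusted p = 0.031). Groups did not overlap for any of them. Osbpl5, a carrier of lipids between membranes, read 10.58 and 12.75 against 8.91 and 9.54 (limma adjusted p = 0.035), and Pcyt1a, an enzyme of phosphatidylcholine synthesis, 11.45 and 11.08 against 9.67 and 9.02 (limma adjusted p = 0.028).

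Of 16 measured factors of innate-like and gamma-delta lineages, 2 were called higher, where 0.35% of all probe sets tested were. The list as a whole lay near the rest of the genes, with a median difference of -0.15. Zbtb16, which encodes PLZF, a factor of innate-like T cells, read 7.07 and 6.94 in TCRgd CD8aa and the floor in both TCRab CD8ab arrays, so its difference of 3.07 is a lower bound (limma adjusted p = 0.042). It passed the filter on dim probe sets only through the TCRgd CD8aa arrays, which fixed its direction and lack of overlap. Its levels in TCRab CD8aa were 8.54 and 8.93, and the contrast between the CD8aa groups did not pass. The Zbtb16 call was lost with a floor at the 30th percentile (limma adjusted p = 0.14), in a fit of the 4 arrays alone (0.16) and without either TCRab CD8aa array (0.055 and 0.074). Irf8, an interferon regulatory factor, read 11.54 and 10.69 against 9.003 and 8.28 (limma adjusted p = 0.0089). Sox13, a marker factor of gamma-delta cells in the thymus, read 7.99 and 7.58 against 7.62 and 8.27. Rora, a nuclear receptor, read 7.95 and 6.86 against 11.07 and 8.40 (limma adjusted p = 0.091), and Id2, an inhibitor of E proteins, differed by -0.08 and 0.05. Fcer1g, Tyrobp and Irf8 are also used by myeloid and dendritic cells. The summed signal of 9 measured myeloid markers was 1323 and 1829 in TCRgd CD8aa and 1356 and 1279 in TCRab CD8ab, and that of 10 dendritic markers 4089 and 4034 against 2681 and 2782, and none of either list was called. Both TCRgd CD8aa arrays lay above both TCRab CD8ab arrays for 4 of the 10 dendritic markers and below them for 1. For the 9 myeloid markers these counts were 0 and 1. Over all probe sets tested the shares were 9.17% and 10.3%. Of the markers, Csf1r read 7.62 and 5.61 against 7.86 and 6.36, and Itgax, also known from gut lymphocytes, 11.12 and 9.84 against 9.41 and 9.51. H2-Eb1 read 8.55 and 8.86 against 7.93 and 5.64, and H2-Aa differed by 0.602 and 4.77 in experiments 1 and 2. The part of such cells in these results was not tested.

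Downstream of the receptor, most genes of proximal signalling showed little difference. Of 19 measured, 1 was called higher and none lower, where 0.35% and 0.212% of all probe sets tested were. The median difference was -0.02. The called gene was Lat2, an adaptor related to the T cell adaptor Lat, which read 12.11 and 11.96 in TCRgd CD8aa against 9.94 and 8.96 in TCRab CD8ab (limma adjusted p = 0.013). A second Lat2 probe set gave 9.23 and 12.14 against 7.18 and 10.19, so that the groups overlapped between experiments although the gap within each was 2.05 and 1.94. That call was lost with quantile normalization (limma adjusted p = 0.063) and without the TCRgd CD8aa array of experiment 2 (difference 1.84). Lat itself differed by -0.38 and -0.27. The kinases Tec and Txk were close to the threshold. Tec read 10.85 and 10.52 against 9.32 and 8.84 (limma adjusted p = 0.067), and Txk 12.19 and 12.56 against 10.13 and 11.37 (limma adjusted p = 0.082). Plcg2, a phospholipase best known from B cells, read 11.24 and 9.74 against 9.35 and 8.95 (limma adjusted p = 0.23), while its T cell counterpart Plcg1 differed by 0.05 and -2.51. Zap70 differed by 0.28 and 0.30, and Syk by 0.06 and -0.10. Of 23 negative regulators of signalling, none was called.

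Some genes better known from epithelium were called higher in TCRgd CD8aa. Of 16 measured genes of epithelial-type adhesion and junctions, 3 were called higher (Pkp2, Epcam and Myo6) and none lower, and 6 had opposite signs in the experiments. At least 1 higher in both experiments was reached by 5, and the median difference was 0.21 in experiment 1 and 1.53 in experiment 2. Over all probe sets tested, 0.35% were called higher and 1.81% were at least 1 higher in both. Pkp2, a plakophilin of desmosomes, read 10.02 and 10.81 in TCRgd CD8aa against 6.66 and 7.09 in TCRab CD8ab (limma adjusted p = 0.0026). Epcam, an adhesion molecule of epithelial cells, read 8.45 and 9.44 against 6.25 and 5.25 (limma adjusted p = 0.031). Myo6, a motor protein of the brush border, read 9.72 and 12.98 against 7.30 and 9.15 by its brightest probe set (limma adjusted p = 0.010). Of its other probe sets, 1 was called and 1 was not, with differences of 1.96 and 0.27 (limma adjusted p = 0.68). The groups did not overlap for Pkp2, Epcam or Myo6. Adh1, an alcohol dehydrogenase that also oxidises retinol, read 11.53 and 10.30 against 8.33 and 7.01 (limma adjusted p = 0.0040), and Ddc, which decarboxylates L-DOPA, 11.78 and 12.11 against 9.72 and 9.06 (limma adjusted p = 0.019). Pkp4, another plakophilin, read 12.54 and 12.84 against 11.38 and 11.19 (limma adjusted p = 0.10). Without the TCRgd CD8aa array of experiment 2, the call was lost for Epcam (difference 2.39) and for the second called Myo6 probe set (2.63). Epcam also lost it with quantile normalization (limma adjusted p = 0.052), and that Myo6 probe set in a fit of the 4 arrays alone (0.056). The dimmer Pkp2 probe set lost it without the TCRab CD8ab array of experiment 2 (difference 2.88). It also lost it with quantile normalization (limma adjusted p = 0.052), a floor at the 30th percentile (0.051) and the 4 arrays alone (0.064).

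The TCRgd CD8aa array of experiment 2 also held RNA of epithelial cells, and its markers behaved otherwise. Of 18 measured enterocyte markers, 13 had opposite signs in the experiments, none was called, and the median difference was -0.32 in experiment 1 and 3.31 in experiment 2. Fabp1, the fatty acid carrier of enterocytes, read 7.69 and 12.33 in TCRgd CD8aa against 8.94 and 7.42 in TCRab CD8ab. Vil1, an actin bundler of microvilli, read 4.80 and 10.93 against 5.92 and 5.72. In experiment 2 alone TCRgd CD8aa was high for both genes. The summed signal of 6 goblet cell markers was 589 and 7896 against 699 and 771, and that of 5 enteroendocrine markers 764 and 13694 against 916 and 1598, with Chgb, a granule protein of hormone cells, at 6.08 and 13.6. Other cell types were less uneven: 6 markers of B and plasma cells summed to 5291 and 5540 against 3662 and 1744, of which the antibody joining chain Jchain read 11.97 in TCRgd CD8aa of experiment 2. Krt8, Krt19 and Krt20, keratins of the list of epithelial-type genes, followed this pattern, with differences of -0.69, -2.38 and -0.25 in experiment 1 and 5.07, 4.36 and 5.21 in experiment 2.

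Every called probe set differs in 1 direction in both experiments, so the same direction of Pkp2, Epcam, Myo6, Adh1 and Ddc carries no weight of its own, and Ddc was picked after its values were seen. In experiment 1, where the summed enterocyte signal was lower in TCRgd CD8aa than in TCRab CD8ab, their differences were 3.36, 2.21, 2.43, 3.20 and 2.06. In the TCRab CD8aa array of experiment 2, with the lowest enterocyte sum of all 6 arrays (1613), Pkp2 read 11.18, Epcam 9.01, Myo6 13.1, Adh1 9.93 and Ddc 12.08. The part of epithelial RNA in the differences of these 5 genes was not tested.

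**Figure D3:**
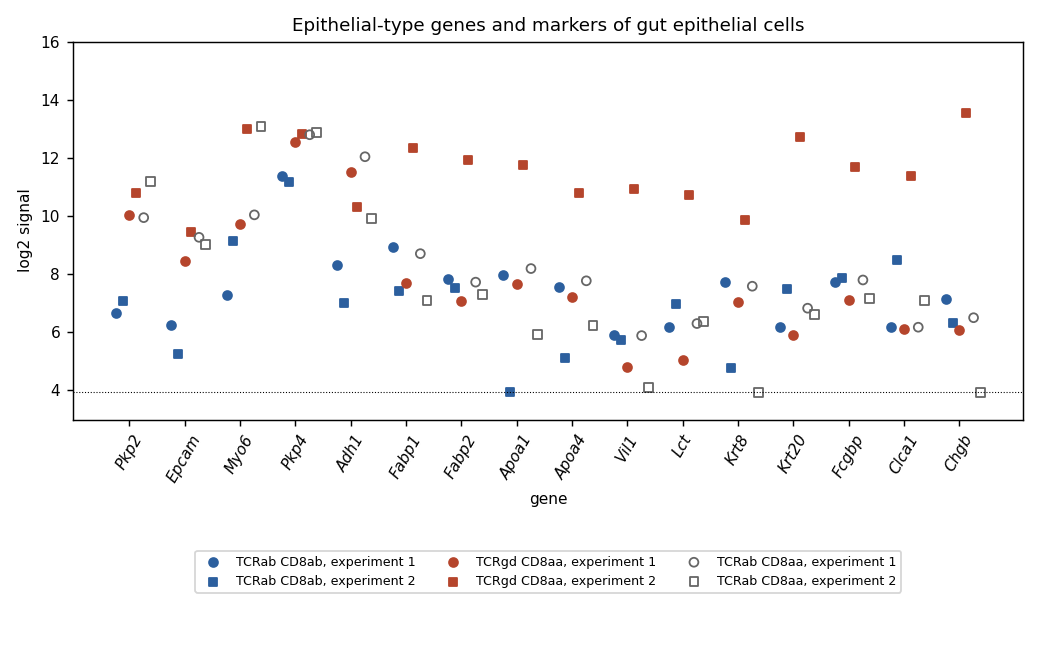
Log2 signal on the y axis for 5 epithelial-type genes (Pkp2 to Adh1) and 11 markers of enterocytes and other gut epithelial cells, chosen for display, on the x axis. Blue marks are TCRab CD8ab, red TCRgd CD8aa, open grey TCRab CD8aa, circles experiment 1, squares experiment 2, and the dotted line is the floor. For the first 5 genes all red and grey marks of an experiment lie above the blue mark of that experiment, while for the others the red square is the highest mark.

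Cell cycle genes were lower in TCRgd CD8aa by a small margin that most of them shared. Of 51 measured, 45 were lower in both experiments, 1 was higher in both and 5 had opposite signs, where 28.9% of all probe sets tested were lower in both and 22.7% higher. The median difference was -0.63 in experiment 1 and -1.11 in experiment 2, against 0.03 and -0.18 over all probe sets. None of the 51 was called by itself. At least 1 lower in both was reached by 10. Rrm2, a subunit of the enzyme that makes deoxyribonucleotides, differed by -1.75 and -2.25, and Cdk1, the kinase of mitotic entry, by -1.46 and -1.93. Mki67, the proliferation antigen, differed by -1.05 and -1.36, and Top2a, which untangles DNA, by -1.21 and -1.96. Ccnd2, a cyclin of the first growth phase, was the gene that lay higher in both, by 0.68 and 0.32. Genes of 1 programme are not independent of each other, so the count is no test.

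**Figure D4:**
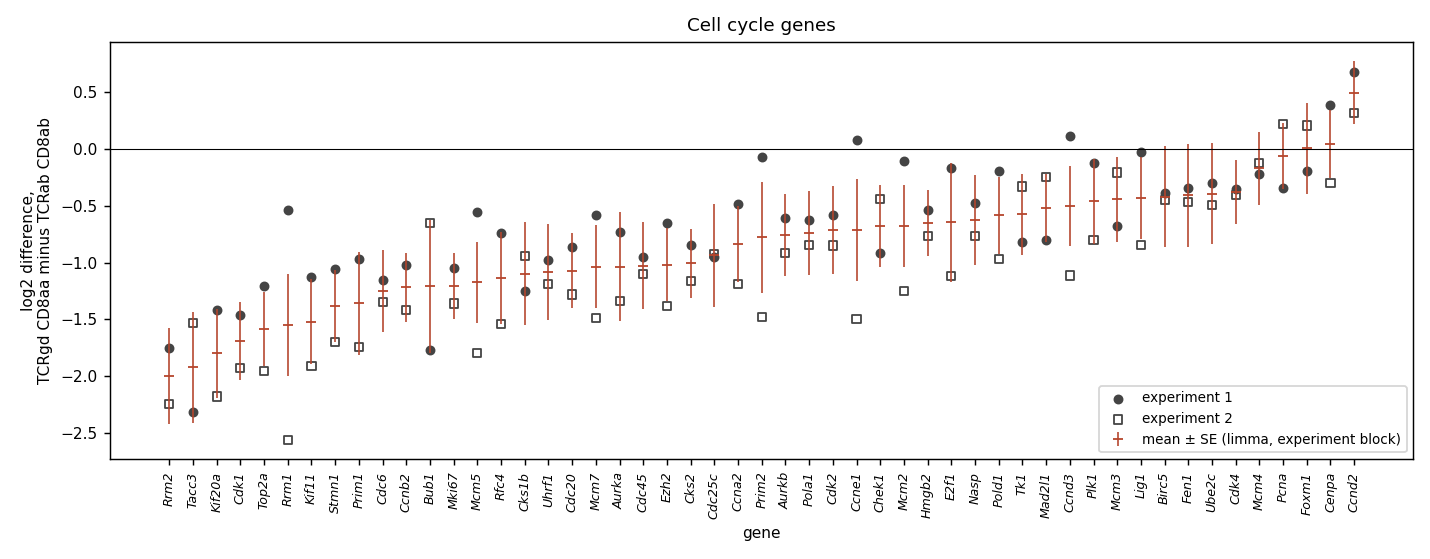
Log2 difference, TCRgd CD8aa minus TCRab CD8ab, on the y axis for each of 51 cell cycle genes on the x axis, in experiment 1 (filled circles) and experiment 2 (open squares), with the mean and its standard error from limma with the experiment as a block (red). Both points lie below 0 for 45 genes, and Ccnd2 at the right has both above 0.

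Cytosolic ribosomal protein genes had 13 of 18 lower in both experiments, 1 higher in both and a median difference of -0.44. Rps19 was the nearest to a call, at 12.23 and 11.20 in TCRgd CD8aa against 14.06 and 12.66 in TCRab CD8ab (limma adjusted p = 0.051). Of 28 interferon response genes, 15 were lower in both, 2 higher in both and none called, with a median of -0.39. Over all probe sets tested, 28.9% were lower in both and 22.7% higher. Of 12 chemokine and other G protein coupled receptors, 4 were at least 1 lower in both experiments, where 1.91% of all probe sets tested were. Among them was Cxcr3, a receptor of effector T cells, at 9.21 and 8.76 against 10.67 and 10.06 (limma adjusted p = 0.16). The gut homing receptor Ccr9 read 9.10 and 8.97 against 9.74 and 10.14 (limma adjusted p = 0.49).

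Granzyme B and both chains of the gut integrin were bright in both groups. Of 16 genes of cytotoxic granules on the array, 11 were bright enough to be measured, and none of them was called, with a median difference of 0.32. Gzmb, the protease granzyme B, read 15.23 and 14.91 in TCRgd CD8aa against 14.73 and 14.36 in TCRab CD8ab (difference 0.52, limma adjusted p = 0.72). Gzmk, another granzyme, lay the other way, at 8.45 and 8.19 against 9.65 and 11.10 (limma adjusted p = 0.13). Itgae, the CD103 chain of the integrin that binds E-cadherin on epithelial cells, read 13.68 and 12.78 against 13.58 and 12.77. Its partner Itgb7 differed by -0.22 and -0.40. A p above the threshold does not show that such levels are equal.

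Of 13 TNF ligands and death receptors, none was called. Tnfrsf21, a death receptor, was at the floor in both TCRab CD8ab arrays and read 6.08 and 7.44 in TCRgd CD8aa (limma adjusted p = 0.14). Tnfsf11, the cytokine RANKL, read 5.27 and 6.06 against 8.16 and 8.11 (limma adjusted p = 0.19). Among 15 cytokine receptors, Kit, the receptor for stem cell factor made by gut epithelium, read 11.46 and 10.002 against 10.37 and 8.63 (limma adjusted p = 0.23). Tgfb3, a growth factor, read 10.65 and 10.26 against 8.68 and 9.34 (limma adjusted p = 0.20). Vipr2, a receptor of the gut neuropeptide VIP, read 8.18 and 6.53 against 4.44 and 4.09 (limma adjusted p = 0.097). Arhgef5, a guanine nucleotide exchange factor, read 7.65 and 6.73, and Nrcam, an adhesion molecule of neurons, 6.40 and 6.42, where both TCRab CD8ab arrays were at the floor (limma adjusted p = 0.20 and 0.37). Tnfrsf21, Vipr2, Arhgef5 and Nrcam passed the filter on dim probe sets only through the TCRgd CD8aa arrays, which fixed their direction.

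**Figure D5:**
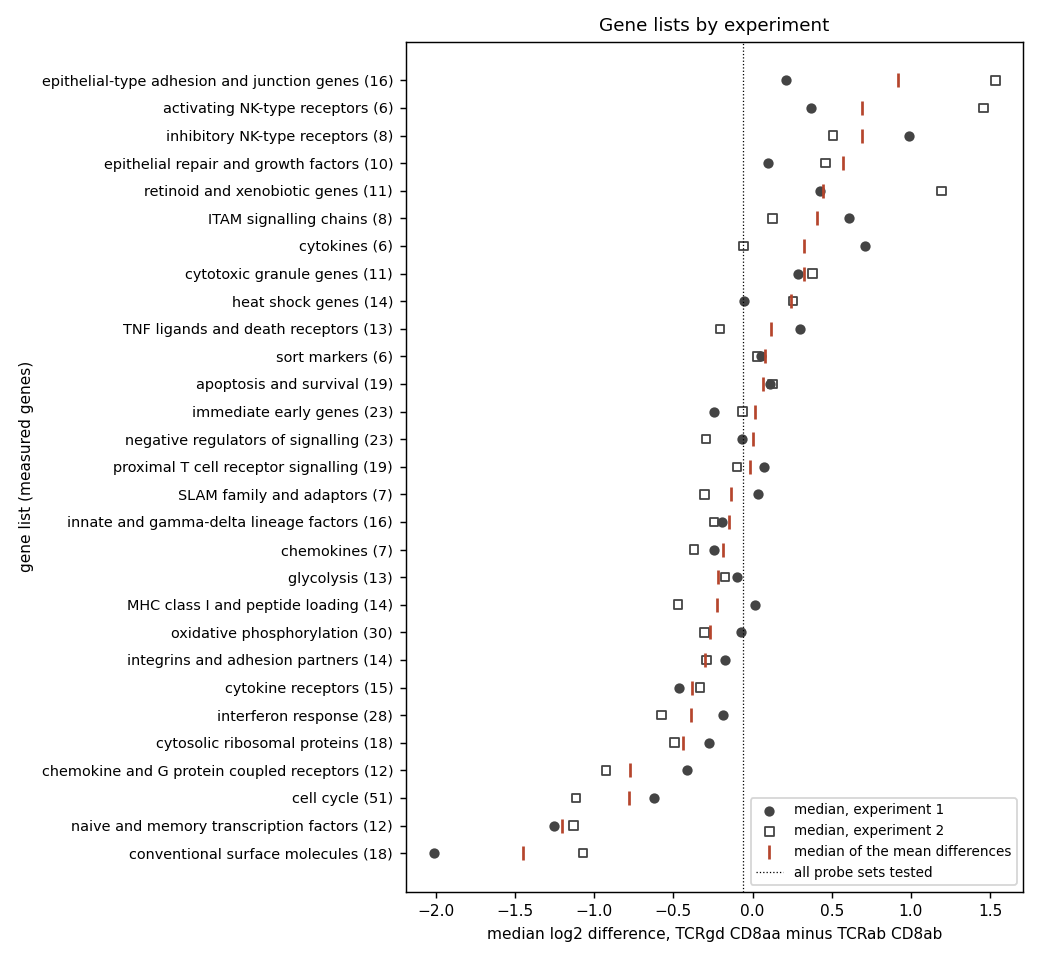
Median log2 difference, TCRgd CD8aa minus TCRab CD8ab, on the x axis for each gene list of at least 6 measured genes on the y axis, lists of markers of other cell types left out (number measured in brackets), in experiment 1 (filled circles) and experiment 2 (open squares), with the median of the mean differences (red bar). The dotted line is the median over all 8006 probe sets, -0.06, and of the lists drawn those of conventional surface molecules (-1.45) and epithelial-type genes (0.92) lie at the ends.

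Heat shock, apoptosis, immediate early, glycolysis, oxidative phosphorylation and MHC class I genes had medians between -0.27 and 0.24, and none of their members was called. The called genes closest to the threshold were Zbtb16 (limma adjusted p = 0.042) and the dimmer Pkp2 probe set (0.041) among the higher ones, and Ctla4 (0.044) and Trbv13-2 (0.043) among the lower. Just outside lay Tbc1d24 (0.053) and Klrd1 (0.060) on the higher side and Rps19 (0.051) and the brighter Trav9d-3 probe set (0.067) on the lower.

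TCRab CD8aa cells share the CD8 form with TCRgd CD8aa and the type of receptor with TCRab CD8ab. Of the 28 probe sets called higher in TCRgd CD8aa, 27 were also called for TCRab CD8aa against TCRab CD8ab. Of the 17 called lower, 12 were. The direct contrast between the CD8aa groups passed for 1 of the 28 and 0 of the 17. For most calls the direct contrast thus did not set gamma-delta cells apart from TCRab CD8aa, which does not show that the groups are alike. Both comparisons with TCRab CD8ab use the same TCRab CD8ab arrays and 1 estimate of the spread. The overlap of their calls therefore carries no weight of its own, and levels are given side by side. How many of all probe sets tested were called for TCRab CD8aa against TCRab CD8ab is not given here. In TCRab CD8aa, Klrb1a read 11.07 and 12.31, Irf8 11.57 and 11.15, and Klf2 5.18 and 3.94, the floor. Cd5 read 3.94 and 5.56 in TCRab CD8aa, and Cd28 4.83 and 6.03, and both overlapped with TCRgd CD8aa. Thy1 read 7.70 and 7.26, below both TCRgd CD8aa arrays, and Cd2 8.03 and 8.14, above them. The direct contrasts were 1.23 ± 0.36 SE for Thy1 and -2.73 ± 0.61 SE for Cd2, and neither passed (limma adjusted p of 1.00 each). Zbtb16 (-1.73 ± 0.52 SE) and Trgv4 likewise did not pass, which does not show that the CD8aa groups were alike for them.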

How the data were processed

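RNA was extracted with a Qiagen kit and hybridised to Affymetrix arrays, per the labels. The authors deposited signal intensity from MAS5, per the submitters' processing notes (version not given); the trimmed mean was 500.4 on each of the 6 arrays, and the values were used as deposited. Probe sets were named through GEO's platform annotation: 10833 carried 1 symbol, 396 several and 1193 none, and 10817 of those with 1 symbol matched RefSeq. Control probe sets (66) were left out. All 6 arrays entered 1 fit (limma 3.58.1 in R 4.3.3, eBayes with an intensity trend) so that the groups share an estimate of the spread, and p-values were adjusted by Benjamini-Hochberg over the 8006 probe sets tested. The fit without a block was the one first laid down, and the replicate block was laid down with it as another fit. Deviations of same-numbered arrays from their group means correlated with r = 0.619 between the groups compared, and 0.731 and 0.635 with TCRab CD8aa, and the pairing is taken from the series' design, which gives each number its own pool of mice; pool and RNA quality, which also differed between the experiments, cannot be told apart. No pair of arrays held a sign of a duplicate. The number of arrays, 2 a group, limits the precision. The fits were tested on simulated data.

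The members and gene lists were chosen with earlier results of these data known, so lists are described by counts and medians, with 1 probe set a gene (the brightest), and not tested. Named genes were the 15 per direction, with 1 symbol and groups that did not overlap, whose smaller within-experiment difference was largest, every list member called with the block, the 4 members of lowest p in each list, and sort, receptor, ITAM and enterocyte genes; Napsa, Mcam, Osbpl5, Pcyt1a, Ddc, 92328_at, Cd48 and members named for a small difference were added after their values were seen. Alternatives changed the normalization, floor, filter, trend, samples and threshold, each with and without the block.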

Additional observations from a re-analysis of the deposited data

Results flagged for a closer look

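The probe set 92328_at differed between the gamma-delta and the alpha-beta CD8aa lymphocytes. Its TCRgd CD8aa level was higher by 5.95 log2 units, with 14.03 and 13.20 in TCRgd CD8aa against 8.16 and 7.15 in TCRab CD8aa, and it was the probe set for which the direct contrast passed (limma with the replicate block, adjusted p = 0.00014). It has no gene name in the annotation used here. Without the block the contrast did not pass (limma adjusted p = 0.82). No group held the 4 samples needed to test for a single array that stands apart.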

How the results depend on the processing

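The calls rest on the replicate block. Without it, limma called 0 higher and 0 lower probe sets in the planned fit and under every alternative without the block, while the block gave 28 higher and 17 lower. With the block, quantile normalization gave 29 higher and 19 lower, a floor at the 10th percentile 28 and 17, a floor at the 30th 25 and 16, 16 added in place of a floor 28 and 18, a filter at the 60th percentile 33 and 24, only the 4 arrays 25 and 22, no intensity trend 2 and 2, no filter 0 and 0, and an adjusted p under 0.10 37 and 26. Leaving out 1 array with the block gave 26 to 179 higher and 21 to 168 lower, with the most without the TCRab CD8ab array of experiment 1 and 121 and 59 without the TCRgd CD8aa array of that experiment, and the cause was not tested. Of the 45 calls, 42 remained with quantile normalization, 40 with only the 4 arrays, 37 of 41 still tested without the TCRgd CD8aa array of experiment 1 and 38 of 41 without that of experiment 2. The count of probe sets at least 1 higher in both experiments, 145, became 228 with no filter, 69 with a filter at the 60th percentile, 35 at a difference of 2, and 492 and 894 in experiment 1 or 2 alone. The count at least 1 lower, 153, became 85, 28, 465 and 1286 under the last 4 of these. No called difference changed its direction under an alternative that was run, while 3874 of the 8006 probe sets tested, the enterocyte markers Fabp1 and Vil1 among them, differed in opposite directions in the experiments. Among the medians of gene lists, 39 values under an alternative moved by more than their spread. The named probe sets, none of which passed in the planned fit, passed in 545 pairs of probe set and setting with the block. In that count a probe set recurs for each setting in which it passed. Signals near the floor limit what dim genes can show.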
